A study of Mus musculus with 2 samples.

Results

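The 10 genes described here encode receptors that carry cargo into autophagosomes (Sqstm1, Nbr1, Optn and Tax1bp1), the 5 members of the Atg8 family measured (Map1lc3a, Map1lc3b, Gabarap, Gabarapl1 and Gabarapl2) and Wipi1, which binds the phosphoinositide of the growing membrane. They were chosen by name and function, with no threshold on their values but with earlier results of these data known. All 10 were found among the 28000 features of both single-cell RNA matrices. The data were 2 droplet libraries of cells sorted from the thoracic aorta, 1 per genotype. The control mice were Tsc1+/+ with Myh11-CreERT2 and the mT/mG reporter, and the mice labelled knockout (KO) carried the same transgenes with Tsc1 fl/fl. All were male C57BL/6 mice given tamoxifen at an age of 1.5 weeks and studied at 24 weeks. Myh11-CreERT2 is a recombinase that tamoxifen activates in smooth muscle cells (SMCs), and mT/mG switches a recombined cell from a red to a green membrane protein (eGFP), so both groups shared the recombinase, the reporter and the drug and differed by the floxed gene. The sources used here do not say how many animals were pooled for a library.

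Values below come from cells with at least 5 eGFP UMIs (unique molecular identifiers, which count each captured RNA molecule once), 500 or more detected genes and a mitochondrial share of UMIs no higher than 10%. This kept 1692 cells of the control library (20011501 UMIs in all) and 1919 of the KO library (30778165 UMIs). Median depth was 11665 UMIs per control cell and 15012 per KO cell, and median mitochondrial shares were 4.77% and 5.73%. The 5 SMC markers Acta2, Myh11, Tagln, Cnn1 and Myl9 were present in both libraries and summed to 41988 counts per 1000000 UMIs (CPM) in control cells and 20068 CPM in KO cells. The 8 macrophage markers summed to 18.0 and 15.4 CPM. Tsc1 itself stood at 9.54 CPM (191 UMIs) in the control library and 8.55 CPM (263 UMIs) in the KO library. The sources used here do not say which exons were floxed, and UMIs can come from outside the deleted stretch, so this level does not check the labels. The libraries shared 4 cell barcodes among the labelled cells.

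Autophagy encloses part of the cytoplasm in a double membrane that fuses with the lysosome. Proteins of the Atg8 family, of the LC3 and GABARAP branches, are attached to a lipid of that membrane, where receptors such as p62 (Sqstm1) hold on to them with one end and to ubiquitin-tagged cargo with the other. Tsc1 encodes hamartin, part of the complex that restrains mTORC1, and active mTORC1 holds back the kinase that starts autophagy and keeps transcription factors for lysosomal and autophagy genes out of the nucleus.

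Sqstm1 lies on mouse chromosome 11 (chr11:50199366-50210827, minus strand, GRCm38), Map1lc3a on chromosome 2 (chr2:155276297-155278073, plus strand), Map1lc3b on chromosome 8 (chr8:121590361-121598760, plus strand), Gabarap on chromosome 11 (chr11:69991143-69994951, plus strand) and Gabarapl1 on chromosome 6 (chr6:129533160-129542346, plus strand). The promoters of the 4 members that were higher in KO cells follow, from RefSeq (GRCm38.p6), each from 250 bases before to 50 bases after the annotated start, 5′ to 3′ on the gene's strand. They are shown so that the members that moved in 1 direction can be compared letter by letter, with capitals for any match to the motifs searched. The windows are chr11:50210771-50211070 (minus strand) for Sqstm1, chr8:121590188-121590487 (plus) for Map1lc3b, chr11:69991120-69991419 (plus) for Gabarap and chr6:129532942-129533241 (plus) for Gabarapl1.
Sqstm1: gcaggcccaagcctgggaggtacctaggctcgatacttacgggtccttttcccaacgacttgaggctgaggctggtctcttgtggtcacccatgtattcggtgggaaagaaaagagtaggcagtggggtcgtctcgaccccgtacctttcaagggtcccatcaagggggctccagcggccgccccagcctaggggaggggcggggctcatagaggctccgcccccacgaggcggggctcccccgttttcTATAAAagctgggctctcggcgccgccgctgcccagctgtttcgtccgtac
Map1lc3b: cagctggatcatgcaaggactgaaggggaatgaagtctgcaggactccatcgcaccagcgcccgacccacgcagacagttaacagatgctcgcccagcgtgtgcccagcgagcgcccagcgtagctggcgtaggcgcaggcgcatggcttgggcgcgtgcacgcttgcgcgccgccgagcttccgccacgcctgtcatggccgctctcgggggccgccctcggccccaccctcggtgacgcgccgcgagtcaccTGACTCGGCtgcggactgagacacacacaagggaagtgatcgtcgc
Gabarap: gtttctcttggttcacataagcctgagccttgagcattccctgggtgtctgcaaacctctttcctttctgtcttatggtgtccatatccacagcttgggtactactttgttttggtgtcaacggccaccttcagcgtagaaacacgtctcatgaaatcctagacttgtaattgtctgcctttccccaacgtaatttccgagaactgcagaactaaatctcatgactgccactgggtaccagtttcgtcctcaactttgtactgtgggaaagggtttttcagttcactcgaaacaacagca
Gabarapl1: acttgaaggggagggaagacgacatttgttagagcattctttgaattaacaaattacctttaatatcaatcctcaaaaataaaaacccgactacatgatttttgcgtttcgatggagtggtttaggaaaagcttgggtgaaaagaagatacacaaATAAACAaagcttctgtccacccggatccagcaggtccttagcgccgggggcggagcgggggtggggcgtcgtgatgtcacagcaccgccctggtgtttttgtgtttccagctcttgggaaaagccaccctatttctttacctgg

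On both strands of these windows, 7 motif forms were searched, and the capitals mark 3 matches. The Sqstm1 window held the TATA box letters TATAAA from 1 base before the annotated start, which 13.6% of all 32851 promoter windows of the same length also held. The Map1lc3b window held TGACTCGGC, a match to the core of the antioxidant response element (TGACNNNGC), 4 bases after the start, and 12.4% of all windows held a match to that core. A window of Tax1bp1, not among these 4 members, also held a match to that core, 205 bases before its start. The Gabarapl1 window held the FOXO-type letters ATAAACA 95 bases before the start, as did 4.60% of all windows. None of the windows matched for 9 of the 10 members held the E-box letters CACGTG (7.15% of all windows), and so none held TCACGTGA, which contains them (0.974% of all windows). None held the letters TGATGNAA (3.97%) or GTAAACA (3.65%). The 4 members that were higher in KO cells thus shared none of the searched motifs in these windows. The member without a window was Map1lc3a, which was lower in KO cells, so windows could not be compared by direction.

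With 1 library per genotype there is no replicate and no test. A gene was called higher or lower when its CPM differed by at least 1.5-fold between the cells compared and reached 50 CPM in at least 1 of them. Intervals are 95% and cover counting error only. Over all labelled cells, 7 members reached 50 CPM, and 4 were called higher in KO cells and 1 lower. Of all 3020 genes at that level, 12.1% were called higher and 14.2% lower. The median log2 ratio was 0.66 over the 7 members at that level, 0.13 over all 10 members and -0.04 over all genes at that level. The 4 higher members were 1 cargo receptor and 3 of the 5 Atg8 genes, and the lower member was another Atg8 gene.

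**Figure D1:**
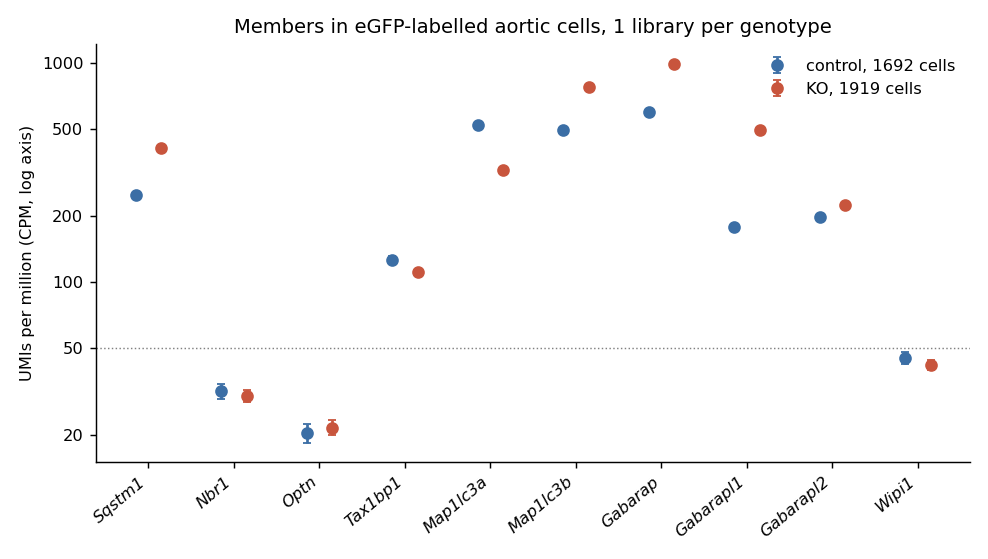
CPM of the 10 members (log axis) in eGFP-labelled cells of the control and KO libraries, with 95% exact Poisson intervals for counting error and a dotted line at 50 CPM. Sqstm1, Map1lc3b, Gabarap and Gabarapl1 sit higher in KO cells, Map1lc3a sits lower, and Nbr1, Optn and Wipi1 lie under the line in both libraries.

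Among the cargo receptors, only Sqstm1 was called. Sqstm1 encodes p62, which gathers ubiquitin-tagged proteins and is itself degraded by autophagy. It stood at 251 CPM in control cells and 412 CPM in KO cells, 1.64-fold higher (1.59 to 1.69). Tax1bp1, a receptor also involved in clearing protein aggregates and bacteria, stood at 126 and 111 CPM, a ratio of 0.883 (0.838 to 0.930). Nbr1, which carries ubiquitin-tagged cargo together with p62, stood at 31.7 and 30.0 CPM. Optn, the receptor optineurin of damaged mitochondria, stood at 20.3 and 21.6 CPM. The intervals of the Nbr1 ratio (0.854 to 1.05) and of the Optn ratio (0.936 to 1.20) hold 1 and do not reach 1.5-fold in either direction.

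The LC3 branch split in opposite directions. Map1lc3b, the source of the LC3B protein most used to follow autophagosomes, stood at 494 CPM in control cells and 783 CPM in KO cells, a ratio of 1.59 (1.55 to 1.62). Map1lc3a, the source of LC3A, stood at 524 and 326 CPM, a ratio of 0.622 (0.605 to 0.639). There were thus 0.943 Map1lc3b UMIs for each Map1lc3a UMI in control cells (0.918 to 0.970) and 2.40 in KO cells (2.35 to 2.46), a quantity that does not depend on how the libraries were scaled.

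In the GABARAP branch, whose proteins act more in closing autophagosomes and fusing them with lysosomes, 2 of 3 genes were called higher. Gabarap stood at 597 CPM in control cells and 993 CPM in KO cells, a ratio of 1.66 (1.63 to 1.70). Gabarapl1 had the largest ratio of the 10 members, 178 against 496 CPM or 2.78-fold (2.68 to 2.88). Gabarapl2, the source of GATE-16, was within 1.5-fold, at 199 and 224 CPM, a ratio of 1.13 (1.08 to 1.17). Wipi1, which reads the lipid signal where the autophagosome forms, was under 50 CPM in both libraries, at 45.0 and 41.6 CPM.

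Summed over the 5 genes, Atg8 family transcripts made up 1992 CPM in control cells and 2822 CPM in KO cells, and the mix changed with the level. The share of family UMIs from Map1lc3a was 26.3% in control cells and 11.5% in KO cells, and that of Gabarapl1 was 8.95% and 17.6%. Gabarap had 30.0% and 35.2% of family UMIs, Map1lc3b 24.8% and 27.7%, and Gabarapl2 10.0% and 7.94%. These are shares of UMIs, not divided by transcript length, so each is read across libraries within 1 gene.

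The same UMIs were also read cell by cell at equal depth. Each cell with at least 5000 UMIs was thinned to that number, which kept 1602 control cells and 1902 KO cells and left out 90 and 17. Gabarapl1 was detected in 56.9% of thinned control cells (54.4 to 59.3) and 84.9% of thinned KO cells (83.2 to 86.5), against 81.3% and 97.8% before thinning. Sqstm1 went from 69.9% to 85.1%, and Map1lc3a from 92.4% to 79.5%, while before thinning Sqstm1 was at 89.9% and 98.1% and Map1lc3a at 98.4% and 96.8%. Thinned shares for Map1lc3b were 89.7% and 96.2% and for Gabarap 95.3% and 99.1%. The intervals of the 2 libraries were apart for these 5 members. These intervals cover the counting of cells within 1 library per genotype, and the share of all genes with intervals apart was not counted. For the other 5 the intervals met: Tax1bp1 had 46% and 42%, Gabarapl2 64.7% and 65.5%, Nbr1 13.7% and 14.6%, Optn 10.5% and 10.4% and Wipi1 18.4% and 17.9%.

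The 350 control cells under the eGFP minimum, whose macrophage markers summed to 16790 CPM, served as a comparison from other cell types. Their median depth was 3780.5 UMIs, and 77 of them reached 5000. Gabarapl1 was detected in 23.4% of those thinned cells (14.5 to 34.4) and Sqstm1 in 23.4%, both under the labelled control cells. Their levels of Sqstm1 (64.2 CPM), Map1lc3a (78.8 CPM) and Gabarapl1 (32.1 CPM) were lower than in labelled control cells, while Gabarap (595 CPM) and Gabarapl2 (185 CPM) were within 10% of them. In these 350 cells Map1lc3a made up 6.61% of Atg8 family UMIs and Gabarap 49.9%.

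Cells were next ordered by contractile share, the percentage of a cell's UMIs from 22 genes of the SMC contractile machinery, none of them a member. Its median was 6.68% in control cells and 3.15% in KO cells. KO cells were divided into 3 classes of equal size at 2.03% and 4.20%, called low (640 cells), intermediate (639) and high (640). By the same cuts the control library had 1524 high cells, 166 intermediate cells and 2 low cells, so no control value is given for the low class. The classes are ranges of a score and not cell types, and 306 and 272 KO cells lay within 0.5 percentage points of the lower and upper cut.

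At a high contractile share too, 4 members were higher in KO cells, and none was called lower. Among the 2939 genes at 50 CPM in the high classes, 8.85% were called higher and 12% lower. Sqstm1 stood at 250.5 CPM in high control cells and 390 CPM in high KO cells (1.56-fold, 1.49 to 1.62), Map1lc3b at 499 and 836 CPM (1.68-fold, 1.63 to 1.73) and Gabarap at 596 and 927 CPM (1.56-fold, 1.51 to 1.60). Gabarapl1, at 177 and 319 CPM, had a ratio of 1.80 (1.72 to 1.89), less than over all labelled cells. Map1lc3a stood at 519.5 and 373 CPM, a ratio of 0.718 (0.691 to 0.745), short of the 1.5-fold limit. With the contractile, mitochondrial and ribosomal protein genes left out of the totals, Sqstm1 and Gabarap fell just under that limit, each with a ratio of 1.49.

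In the intermediate classes 4 members were again higher and 1 was lower, where 11.2% of 3222 genes were called higher and 15.6% lower. Gabarapl1 stood at 197 CPM in control and 437.5 CPM in KO cells, a ratio of 2.22 (1.97 to 2.51). Map1lc3a stood at 575 and 328 CPM, a ratio of 0.571 (0.529 to 0.616). Ratios were 1.61 for Sqstm1, 1.77 for Map1lc3b and 1.65 for Gabarap. Cells with a UMI of Dlx5, Dlx6, Msx2 or Prrx2, homeobox transcription factors taken here as markers of regional SMCs, were 74.7% of the intermediate control cells and 16.9% of the intermediate KO cells. Such cells were 30.8% of the high control cells and 9.84% of the high KO cells. The same 4 members were higher and Map1lc3a lower both in cells with such a UMI (596 control and 349 KO cells), where 12.9% of 3129 genes were called higher and 15.6% lower, and in cells without one, where 13.3% of 2987 were called higher and 13.5% lower. Gabarapl1 was 3.10-fold higher with such a UMI and 2.69-fold without, and Map1lc3a had ratios of 0.572 and 0.645.

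**Figure D2:**
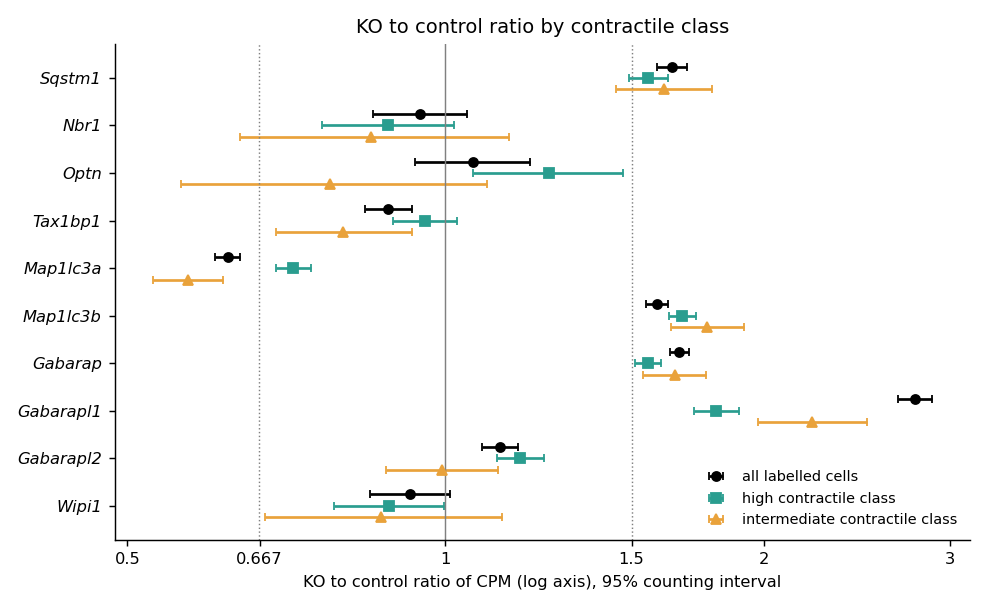
KO to control ratio of CPM (log axis) for each member with 95% counting intervals, over all labelled cells and in the high and intermediate contractile classes, with dotted lines at 1.5-fold. Gabarapl1 is 2.78 over all cells but 1.80 in the high class and 2.22 in the intermediate class, and Map1lc3a runs from 0.571 in the intermediate class to 0.718 in the high class.

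Within the KO library, Gabarapl1 alone of the 7 members at 50 CPM differed by 1.5-fold between the low and high classes. Between these classes, 11.5% of 2980 genes were called higher in low cells and 11.2% lower. Gabarapl1 stood at 319 CPM in high, 437.5 CPM in intermediate and 715 CPM in low cells, so low cells held 2.24 times (2.15 to 2.34) the level of high cells. Map1lc3a ran the other way, at 373, 328 and 278 CPM, with low cells at 0.746 of the high level (0.711 to 0.783). Sqstm1 (390 and 429 CPM in high and low cells), Gabarap (927 and 1059 CPM) and Map1lc3b (836 and 739 CPM) moved by less than 1.5-fold. Among the control cells no member at 50 CPM was called between the intermediate and high classes, where 9.15% of 3061 genes were called higher and 4.64% lower. Gabarapl1 stood at 197 and 177 CPM there. Between intermediate and high KO cells no member was called either, where 3.17% of 2906 genes were called higher and 1.82% lower.

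Along the KO classes the summed level of the 6 fibroblast markers Pdgfra, Dpt, Pi16, Col1a1, Lum and Dcn was higher where Gabarapl1 was. This sum was 296 CPM in high, 560 CPM in intermediate and 2142 CPM in low KO cells, with Pi16 at 0 in the first 2 classes. In control cells it was 439 CPM in the high and 951 CPM in the intermediate class, where Gabarapl1 stood at 177 and 197 CPM. The highest single marker gave 220, 370 and 876 CPM in high, intermediate and low KO cells, and the lowest 0, 0 and 0.092 CPM. Cells with a Dlx5, Dlx6, Msx2 or Prrx2 UMI were 9.84%, 16.9% and 27.8% of high, intermediate and low KO cells. The neutrophil markers S100a8, S100a9 and Retnlg summed to 11.3, 58.3 and 6.53 CPM in the same order. The part of the fibroblast and neutrophil markers in the Gabarapl1 result was not tested. Without the cells with a Dlx5, Dlx6, Msx2 or Prrx2 UMI, the low to high ratio of Gabarapl1 was 2.27.

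The patterns appeared in finer steps over 10 bins of equal size along contractile share in each library. Gabarapl1 stood at 806 CPM in the KO bin with the lowest contractile share and 314 CPM in that with the highest, and fell at each step but the last. In control cells it stayed between 164 and 195 CPM over all 10 bins. Map1lc3a went from 243 CPM in the lowest KO bin to 402 CPM in the highest, and lay between 481 and 572 CPM in control bins. Sqstm1 lay between 220 and 274 CPM in control bins and between 385 and 457 CPM in KO bins, and Gabarap between 568 and 613 CPM and between 906 and 1084 CPM. Map1lc3b, unlike Gabarapl1, was highest at the highest contractile share in both libraries, 556 CPM in control and 889 CPM in KO. For these 5 members no control bin overlapped any KO bin, and for Gabarapl2, Tax1bp1, Nbr1, Optn and Wipi1 the bins overlapped. The share of all genes whose bins were apart was not counted, so this is a description of the members only. Median depth of the control bins went from 8777.5 to 14327 UMIs with contractile share, while KO bins lay between 13428.5 and 16342 UMIs.

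**Figure D3:**
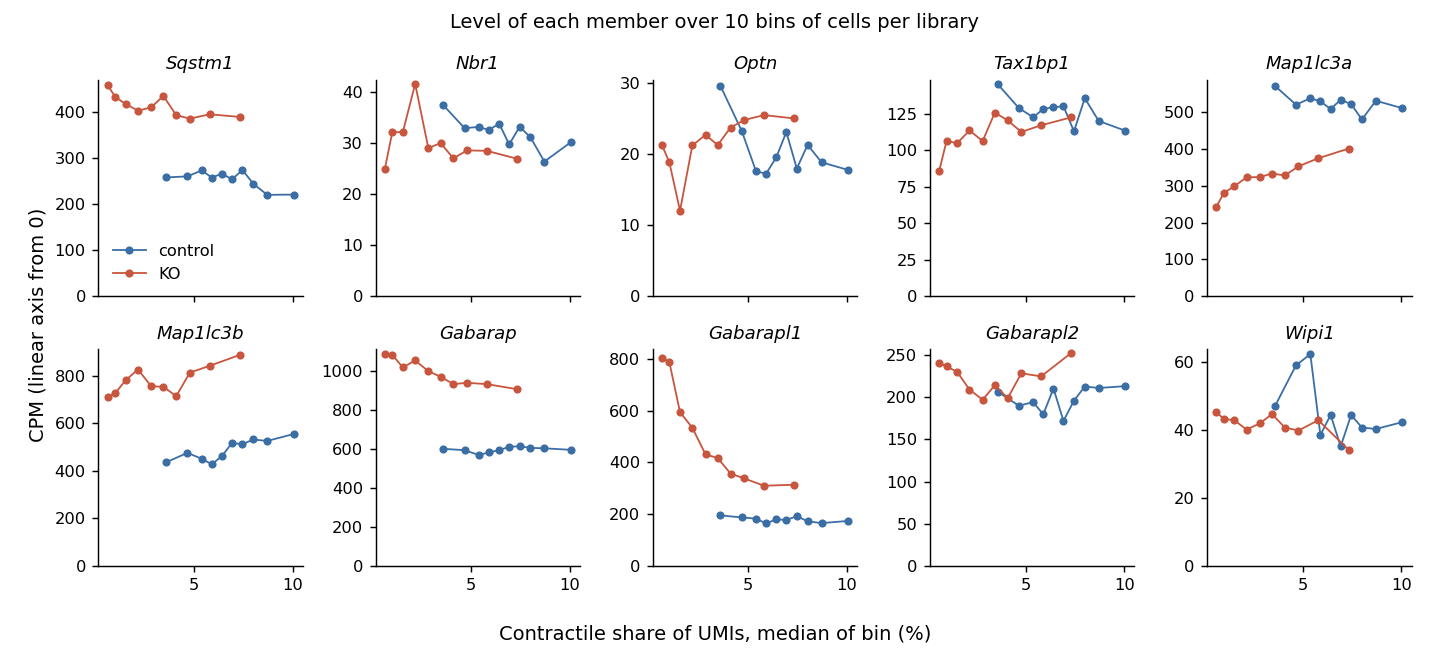
CPM of each member (linear axis from 0) over 10 equal-sized bins of cells by contractile share in the control and KO libraries, placed at the median share of the bin in percent. Gabarapl1 climbs to 806 CPM in the KO bin with the lowest share and stays between 164 and 195 CPM in control cells, while Map1lc3a drops to 243 CPM in that KO bin.

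A closer match came from 5 ranges of contractile share 1 percentage point wide, from 3 to 8%, that held at least 50 labelled cells of each library. In each of the 5 ranges the counting interval lay above 1 for Gabarapl1 (ratios 1.74 to 2.01), Map1lc3b (1.61 to 1.93), Gabarap (1.49 to 1.64) and Sqstm1 (1.46 to 1.66), and below 1 for Map1lc3a (0.578 to 0.760). The 1.5-fold limit was reached in 5 of 5 ranges by Gabarapl1 and Map1lc3b, in 4 by Gabarap, in 2 by Sqstm1 and, for a lower level, in 2 by Map1lc3a and in 1 by Nbr1 (under 50 CPM). The share of all genes past this limit, or with intervals clear of 1, was not counted in the ranges, so these counts describe the members only. Gabarapl2 ranged from 1.02 to 1.34 and its interval lay above 1 in 3 ranges. Wipi1, at 60.3 and 52.8 CPM in control cells of the 4 to 5% and 5 to 6% ranges, had ratios of 0.710 (0.557 to 0.909) and 0.712 (0.553 to 0.914) there. In the other ranges its interval held 1. The ratio of Gabarapl1 over all labelled cells, 2.78, lay above all 5 of its matched values, while that of Sqstm1, 1.64, lay among them.

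The class composition of the Atg8 family followed these levels. Gabarapl1 made up 11.9% of family UMIs in high, 16% in intermediate and 23.6% in low KO cells, against 8.89% in high and 9.77% in intermediate control cells. Map1lc3a made up 13.9%, 12% and 9.20% in KO cells, against 26.1% and 28.5% in control cells. Summed family levels in high, intermediate and low KO cells were 2689, 2735 and 3024 CPM. Even among high cells, KO cells held 2.24 Map1lc3b UMIs per Map1lc3a UMI (2.16 to 2.33) and control cells 0.960 (0.933 to 0.988).

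**Figure D4:**
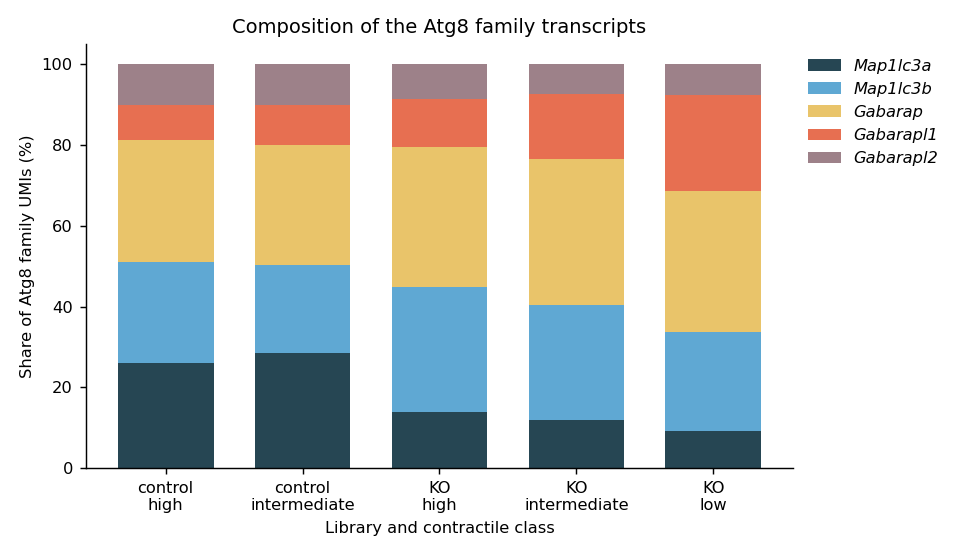
Share of the 5 Atg8 family genes in the family's summed UMIs, in percent, by library and contractile class. Map1lc3a takes 26.1% of high control cells' family UMIs and 9.20% in low KO cells, while Gabarapl1 takes 8.89% and 23.6%.

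Over all KO cells Gabarapl1 varied more from cell to cell than the other members. In cells thinned to 5000 UMIs its Fano factor (variance over mean, 1 for pure counting noise) was 1.16 in control cells and 2.31 in KO cells, where 105 genes of like mean had a median of 1.37 and 84.8% of them lay below it. Within KO classes the factor was 1.07 in high, 1.43 in intermediate and 2.77 in low cells, with up to 21 UMIs in a thinned low cell. The mean of thinned UMIs also differed, at 1.61, 2.08 and 3.69 in the same order. Genes of like mean were not compared within classes. In high KO cells Gabarapl1 was under Map1lc3b (1.33), Sqstm1 (1.24), Map1lc3a (1.15) and Gabarap (1.14), and in low KO cells above Sqstm1 (1.37), Map1lc3b (1.26), Map1lc3a (1.18) and Gabarap (1.17). In control cells its factor was close to that of Map1lc3b, also 1.16. Sqstm1, Map1lc3b, Gabarap and Map1lc3a had factors of 1.33, 1.33, 1.22 and 1.09 over all KO cells. More than 2 Gabarapl1 UMIs, the 90th percentile of thinned control cells, were found in 7.30% of control cells and 37.2% of KO cells. The same measure, above the control 90th percentile of each gene, gave 9.24% and 37.6% for Gabarap, 4.81% and 22% for Map1lc3b, and 5.99% and 1.10% for Map1lc3a.

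Genes whose level ran most like that of each called member over the 20 bins were ranked by Pearson's r of log2(CPM + 1) among 2734 genes. The bins share their libraries, totals and ordering score, so r is a description. Over the 10 KO bins alone, the r of the 5 nearest genes lay between 0.964 and 0.990 for Gabarapl1, 0.908 and 0.967 for Map1lc3a, 0.886 and 0.975 for Gabarap, 0.514 and 0.910 for Map1lc3b, and 0.461 and 0.811 for Sqstm1. Nearest to Gabarapl1 were Npc2 (r = 0.994), Sepp1 (0.993), Sat1 (0.992), Mgp (0.986) and Tnfrsf11b (0.986). Npc2 encodes a lysosomal cholesterol carrier and stood at 137 CPM in control and 408 CPM in KO cells, and Mgp, an inhibitor of arterial calcification, at 5315 and 41061 CPM. Nearest to Map1lc3a were Rasl11a (0.980), Rrad (0.979), Oat (0.977), Cav2 (0.976) and Ecm2 (0.975), each lower in KO cells, for example Rrad at 382 and 98.4 CPM. Nearest to Gabarap were 1110008P14Rik (0.991), Ptgds (0.989), Rnase4 (0.989), Dkk3 (0.987) and Gpx4 (0.985). Nearest to Map1lc3b were Atpif1 (0.988), Hist1h2bc (0.975), Chchd10 (0.973), Cd63 (0.969) and Clta (0.968). Nearest to Sqstm1 were Ptgds (0.984), Atp1b1 (0.978), Slc6a8 (0.978), Arpc1a (0.976) and Ppp1r14b (0.975).

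The rest of the autophagy machinery was read from a list of 63 further genes in 6 roles. Of these, 55 reached 10 CPM, and 6 were at least 1.5-fold higher in KO cells and 0 lower, where 13.2% of 8113 genes at that level were higher and 11.4% lower. Their median log2 ratio was 0.14. None of the 5 genes of the initiation kinase complex or the 7 genes of the phosphoinositide 3-kinase complex passed 1.5-fold. Vmp1, a membrane protein that lets the autophagosome leave the endoplasmic reticulum, stood at 39.3 and 82.3 CPM (2.10-fold, 1.93 to 2.27) and was the only 1 of 8 genes of membrane supply to pass. Atg3, the enzyme that hands Atg8 proteins to the lipid, stood at 92.2 and 140 CPM (1.52-fold) and was the only 1 of 10 conjugation genes. Fam134b, a receptor for autophagy of the endoplasmic reticulum, stood at 5.0 and 10.1 CPM (2.02-fold) and was the only 1 of 16 other receptors and adaptors. The fusion genes held the largest group, with Ykt6 (1.78-fold), Tecpr1 (1.76-fold) and Snap29 (1.66-fold) higher among 9. The lowest ratios were those of Atg16l2 (0.687), Atg4d (0.695) and Stbd1 (0.705).

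**Figure D5:**
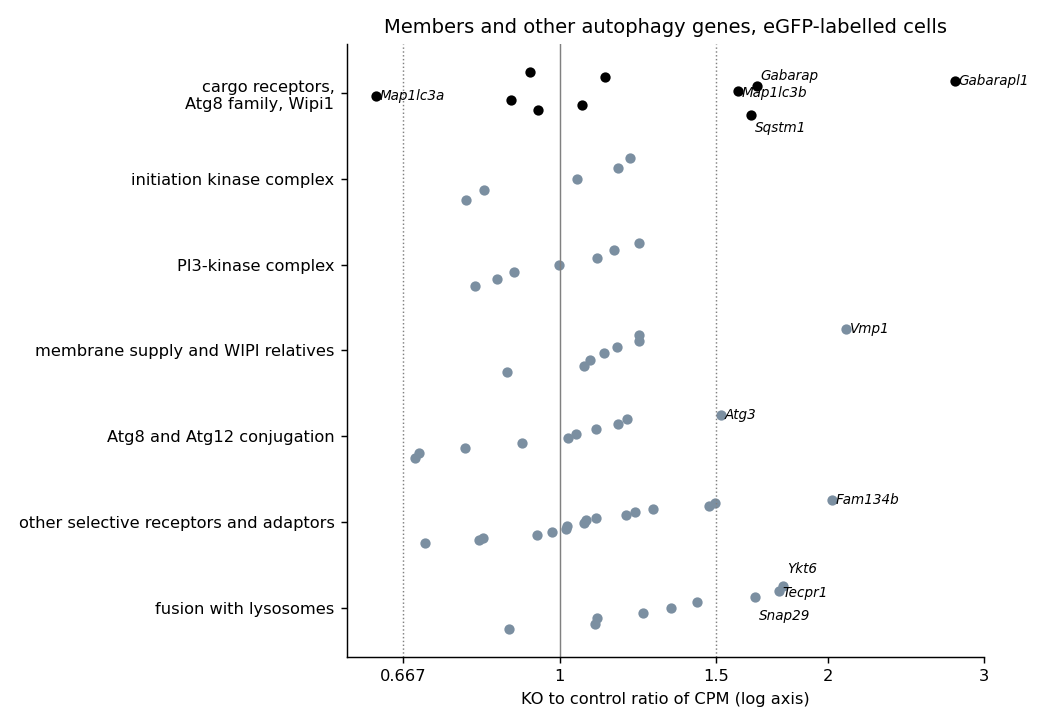
KO to control ratio of CPM (log axis) of the 10 members (black) and of 55 other autophagy genes at 10 CPM or more (grey) by role, with dotted lines at 1.5-fold. Gabarapl1 at 2.78 lies to the right of every other gene, ahead of Vmp1 at 2.10, and Map1lc3a at 0.622 lies to the left of all others.

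Between low and high KO cells, 6 of these 55 genes were at least 1.5-fold higher in low cells, as Gabarapl1 was, and 0 were lower. Of all 8030 genes at 10 CPM in these classes, 11.8% were higher in low cells and 8.64% lower. Vmp1 (1.69-fold), Tecpr1 (1.88-fold), Snap29 (1.73-fold) and Ykt6 (1.65-fold) were higher here as well as between the libraries. Ulk1, the kinase that starts autophagy, was 1.55-fold higher in low cells, and Uvrag, a subunit of the phosphoinositide 3-kinase complex, 1.64-fold, although both were within 1.5-fold between the libraries. Atg3 had a low to high ratio of 0.931.

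The authors' deposited table gives a mean per 10000 counts for each of their clusters and libraries, with no number of cells. In its columns with eGFP above 10 (4 control and 5 KO, a limit set after the values were seen), the authors' deposited table lists Sqstm1 at 1.33 to 2.69 in control and 3.31 to 4.69 in KO columns, and Gabarap at 5.61 to 6.70 and 7.19 to 10.6, without overlap. The share of all genes without overlap in these columns was not counted. In the authors' deposited table Gabarapl1 reaches 6.60 in KO cluster 2, where Acta2 is listed at 46.1, and lies between 1.32 and 1.88 in control columns. In the authors' deposited table KO cluster 4 has the next lowest Acta2 of the 5 KO columns (60.1) and the lowest Gabarapl1. The authors' deposited table lists Gabarapl1 there at 1.11, Map1lc3b at 5.13 (4.78 to 5.17 in control columns) and Map1lc3a at 6.14. The last 2 lie within the range of the 4 control columns and the first under it. Control cluster 3 was left out because its eGFP lies just under the limit. Its Gabarapl1 is lower than that of KO cluster 4, so the place of Gabarapl1 under the control range depends on that limit. Map1lc3a in KO cluster 0, 5.14, also lies within the control range of the authors' deposited table, 4.90 to 6.18. By like cluster number, the authors' deposited table lists Map1lc3a in control and KO at 5.04 and 5.14 in cluster 0 and 6.18 and 6.14 in cluster 4. The authors' deposited table lists it at 5.27 and 4.31 in cluster 1 and 4.90 and 3.13 in cluster 2.

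Of the members, 3 overlap other genes of the matrices. In the annotation Sqstm1 overlaps Mrnip and Map1lc3b overlaps Zcchc14, both on the opposite strand, and the sources used here do not say whether counting used strand. Optn overlaps 4930551O13Rik and Map1lc3b overlaps Gm20388, and both neighbours had 0 UMIs in labelled cells. No other annotated transcript shared 20% or more of the 31-base words in the last 300 bases of a member.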

How the data were processed

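Both libraries were deposited as raw UMI counts for every gene in every cell. According to the submitters' processing notes the authors used bcl2fastq, Cell Ranger and Seurat 2.0 with the build mm10. The sources used here do not say how cells were called. The deposited lists of features and barcodes gave gene names and cells. The unit of the authors' deposited table of cluster averages, a signal whose columns each sum to 10000, was read from its values.

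Members and gene lists were chosen with earlier results of these data known. Counts were summed over cells of a library and class and divided by their total (CPM). Ratios have exact conditional binomial intervals, levels exact Poisson intervals and shares of cells Clopper-Pearson intervals, all at 95%. The text names all 10 members, of the other autophagy genes those at 10 CPM changed at least 2-fold with up to 3 at either end, the 5 genes most like each called member, and markers that a statement needs. Genes that make up a count are also named, chosen after their values were seen. No doublet caller was run. An alternative left out cells above the 98th percentile of UMIs. Thinning used 5000 UMIs. The ratio and its calls were run on simulated Poisson counts, which hold no extra spread between cells or libraries and so cannot test for it. Tools were Python 3.11.15, numpy 2.4.6, scipy 1.17.1, pandas 2.3.3, R 4.3.3 and, for TMM factors, edgeR 4.0.16. Positions came from GENCODE M21 and promoters from RefSeq.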

Additional observations from a re-analysis of the deposited data

How the results depend on the processing

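None of the other ways of scaling, filtering or summing the cells reversed the direction of a called member between KO and control cells. Some of these ways kept only 1 range of contractile share, or only cells with a Dlx5, Dlx6, Msx2 or Prrx2 UMI. Among the others, the ratio ranged from 2.59 to 3.09 for Gabarapl1, 1.55 to 1.71 for Gabarap and 1.53 to 1.77 for Sqstm1. It ranged from 1.47 to 1.67 for Map1lc3b and 0.578 to 0.645 for Map1lc3a. With those subsets included, the ratio ranged from 1.74 to 3.10 for Gabarapl1, 1.49 to 1.73 for Gabarap and 1.46 to 1.89 for Sqstm1. That of Map1lc3b then ranged from 1.47 to 1.93 and that of Map1lc3a from 0.572 to 0.760. Map1lc3b was under 1.5 (1.47) with totals that left out contractile, mitochondrial and ribosomal protein genes, which moved the median log2 ratio of all genes from -0.04 to -0.14. With a fold limit of 2, 1 member was higher (Gabarapl1), 0 were lower, 2 other autophagy genes were higher and 356 genes in all were called, against 796 at 1.5. A minimum of 10 CPM called 1999 genes and no minimum 8534. Of the other autophagy genes, none of which was called lower as reported, 3 were with those totals and 2 with a mitochondrial limit of 5%. Leaving out cells with immune marker UMIs gave 1, leaving out cells with a Dlx5, Dlx6, Msx2 or Prrx2 UMI gave 1, and only those cells gave 3. Of all genes at 50 CPM, 1002 were called with those totals and 894 with the 5% limit, against 796 as reported. The share of all genes lower at 10 CPM was not counted under these settings. In the high class those totals left 2 members higher. Within ranges of contractile share of 5 to 6%, 6 to 7% and 7 to 8%, 0 members were called lower. The share of all genes called was not counted for the high class with those totals or within these ranges. The single ranges of contractile share, the cells with a Dlx5, Dlx6, Msx2 or Prrx2 UMI and the family shares were chosen after seeing the data. The causes of these shifts were not tested. No paired analysis was possible because there was 1 library per group, and for the same reason no library could be left out. With no minimum level Nbr1, Optn and Wipi1 were within 1.5-fold, and the counting intervals of their ratios leave out a 1.5-fold change in either direction.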

Other observations

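The 17 KO cells under the eGFP minimum held 19 Gabarapl1 UMIs in 6 cells (217 CPM, 131 to 339) and 75 Gabarap UMIs (857 CPM, 674 to 1074), and 12.7% of their 150 Atg8 family UMIs came from Gabarapl1 (7.80 to 19.1). In the 350 control cells under the minimum, Gabarapl1 gave 2.69% of 1710 family UMIs (1.98 to 3.57). The 2 groups are different mixes of cells and are not compared. Neutrophil markers summed to 42887 CPM in these KO cells and 11534 CPM in these control cells, macrophage markers to 3735 and 16790 CPM, and fibroblast markers to 2376 and 59.3 CPM.

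Optn was under 50 CPM and so outside the calls. It stood at 29.6 CPM in intermediate and 19.6 CPM in high control cells (ratio 1.51, 1.08 to 2.07). In KO cells it stood at 24.5 CPM in high cells, with an intermediate to high ratio of 0.939 (0.780 to 1.13), and at 17.5 CPM in low cells, with a low to high ratio of 0.713 (0.587 to 0.863). The control classes rest on 45 and 362 UMIs, and the difference between the libraries' ratios was not tested.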
